A study of Drosophila melanogaster with 6 samples.

Results

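Draper and the Nimrod proteins are the receptors and secreted helpers with which fly phagocytes and glia recognise dead cells, neuronal debris and bacteria. The group described here holds 10 of the 13402 genes that the array names by a single symbol: drpr, NimA, NimB1, NimB2, NimB4, NimB5, NimC1, NimC2, NimC3 and NimC4. The members were chosen by symbol, and each was read by 1 array row. Head RNA was hybridised to Affymetrix gene arrays of the fly, 6 in all, with 3 arrays of a seizure pool and 3 of controls. For the pool, equal amounts of RNA were combined from 7 bang-sensitive lines, which seize after mechanical shock, each made by a cross to repo-GAL4, a driver that is active in nearly all glia. The crosses were SesB-RNAi, COX7A-RNAi, comt-RNAi, nrv2-RNAi, ATPalpha-RNAi, UAS-Dube3a and UAS-htt.12Q.FL, so 5 lines carried an RNA interference construct and 2 an overexpression transgene. Controls carried the same repo-GAL4 driver with an empty TRiP RNA interference vector, so every group carried the driver. All flies were about 3 to 5 days old, were kept at 25 °C and gave 15 to 25 heads per genotype. Because the RNA was mixed before hybridisation, each pool value is an average over the lines, and a change in 1 line cannot be told apart from a smaller change in all of them.

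Draper is a transmembrane receptor related to CED-1 of the nematode and MEGF10 of mammals. Glia use it to engulf severed axons and dying neurons, and a cascade that includes the adaptor Ced-6 and the kinase Shark carries its signal to the cytoskeleton. Nimrod proteins share short cysteine-rich NIM repeats: the NimA and NimC types are mostly membrane receptors, and the NimB types are secreted. NimC4, also called Six-microns-under, binds phosphatidylserine on apoptotic cells and acts together with Draper in embryonic glia and macrophages.

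The deposited log2 values had array medians of 5.53 to 5.63, and arrays correlated at 0.9967 to 0.9978 within groups and at 0.9952 to 0.9960 between groups. The labels call the tissue brain, whereas the protocol took whole heads. The neuronal marker elav averaged 9.64 ± 0.08 in pool heads and 9.50 ± 0.07 in control heads (log2 signal, SD, n = 3 each). The glial marker repo, named here only as a check of the tissue, averaged 7.82 ± 0.05 in pool heads and 7.99 ± 0.04 in control heads (adjusted p = 0.162). Lsp2, a storage protein gene of the fat body, a tissue of the head outside the brain, averaged 12.06 ± 0.05 in pool heads and 10.74 ± 0.03 in control heads. No label states separate RNA preparations for the arrays of a group, so the p-values rest on array-to-array spread that may be technical. The number of arrays limits the precision.

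NimA was the member whose signal rose in the pool, and the receptors drpr and NimC4 were a little higher in the pool without passing the test. NimA stood 1.34-fold above control, NimC4 1.16-fold and drpr 1.14-fold. The secreted NimB members and the hemocyte receptor NimC1 did not pass. Of the 10 members, 1 rose and 0 fell at an adjusted p under 0.05 in limma, against 2.90% of the 16322 array rows that passed in either direction, 1.65% higher and 1.24% lower in the pool. At an unadjusted p under 0.05 the count was 5 of 10 members, against 14.8% of all rows. In 5 members the groups did not overlap, against 21.5% of all rows. In 4 of these all pool arrays lay above all control arrays, as they did in 11.4% of all rows, and in NimB2 they lay below. The median log2 difference of the 10 members was 0.10, with 7 members higher and 3 lower in the pool, whereas the median over all rows was -0.00055.

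**Figure D1:**
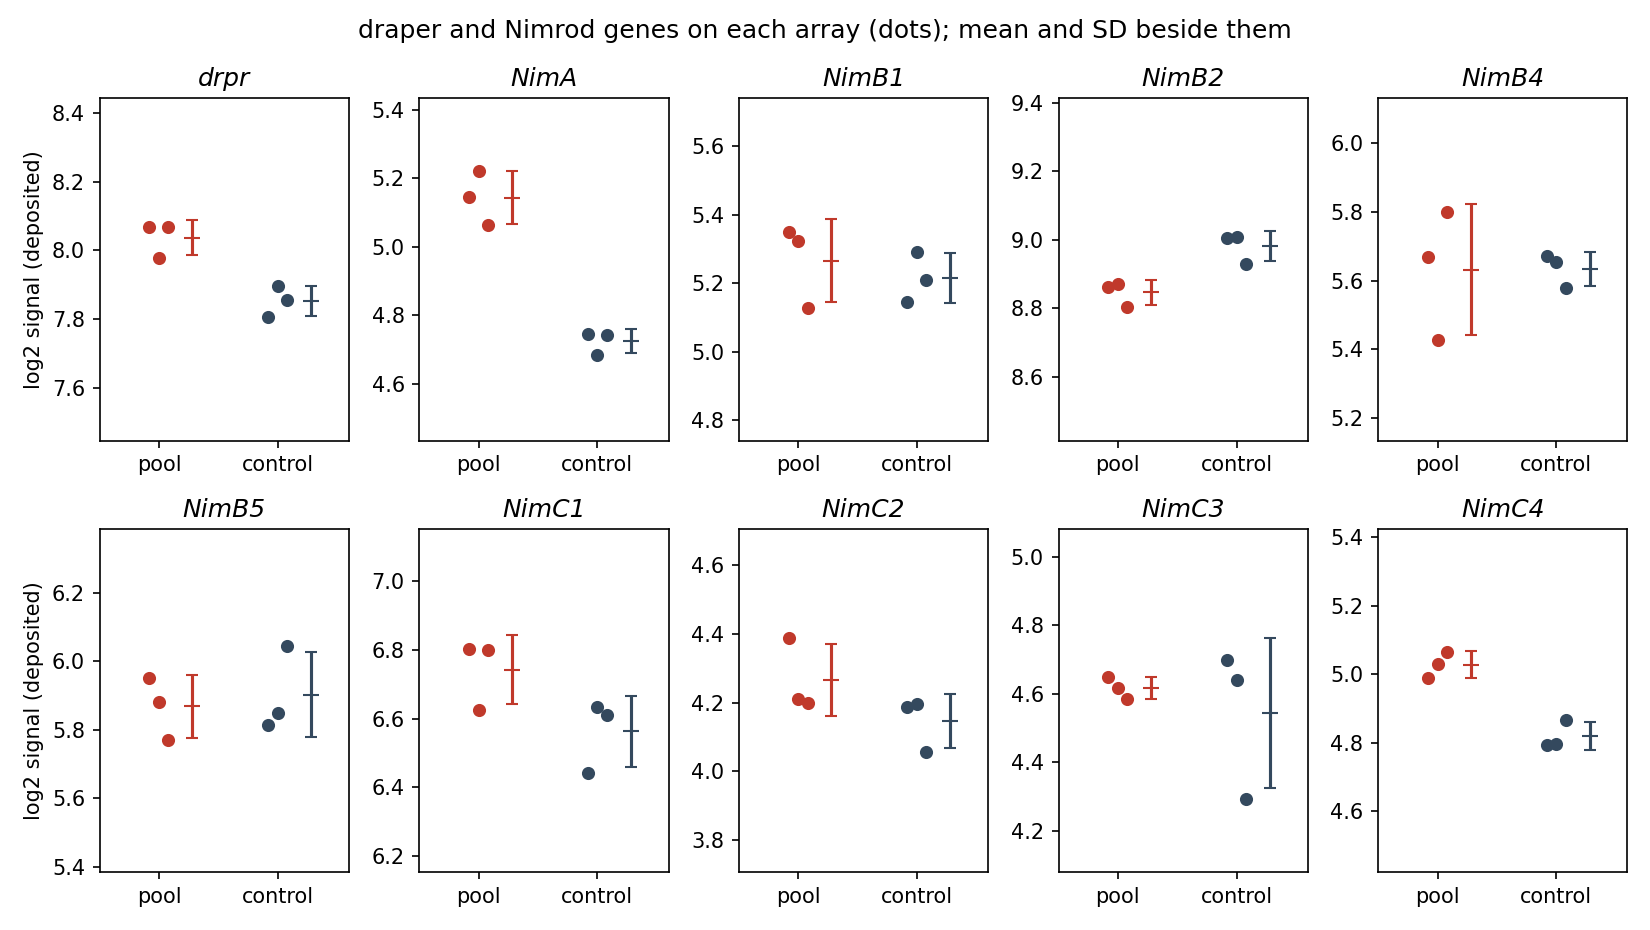
Deposited log2 signal (vertical axis, 1 log2 unit high in every panel) of each draper or Nimrod gene on the 3 pool arrays (red, left) and the 3 control arrays (dark, right), with the mean and SD beside the dots. NimA, NimC4 and drpr have pool dots above all control dots, NimC2 barely so, and NimB2 has pool dots below all control dots.

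NimA encodes a predicted membrane protein that carries, like Draper, an EMI domain near its NIM repeats, and its function is less well described than that of Draper or NimC4. Its log2 signal was 5.15, 5.22 and 5.06 on the pool arrays, against 4.75, 4.69 and 4.74 on the control arrays. All these values lay below the array medians of 5.53 to 5.63, so the signal was low. The lowest pool array stood 0.32 above the highest control array, a gap larger than the spread within either group. The log2 difference was 0.42 with a standard error of 0.058, and the 95% interval of the fold was 1.22 to 1.47 (limma, adjusted p = 0.0100). By p-value NimA ranked 176 among the 16322 rows. The call was kept in 13 of 14 alternative fits and with any 1 array left out. It was lost in the ordinary test without moderation of the variance (adjusted p = 0.0616). An exact permutation test of 3 arrays against 3 cannot go below p = 0.1, and NimA reached that limit.

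NimC4 is the apoptotic cell receptor. Its log2 signal was 4.99, 5.03 and 5.06 on the pool arrays, against 4.79, 4.79 and 4.87 on the control arrays. These values too lay below the array medians of 5.53 to 5.63. Every pool array was above every control array, by at least 0.12. The log2 difference of 0.21 had a standard error of 0.052 and a fold interval of 1.06 to 1.26, and it did not pass (limma, adjusted p = 0.0921). Over the 14 alternatives the log2 difference ranged between 0.18 and 0.23 and the adjusted p between 0.0658 and 0.255.

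For drpr, the log2 signal was 8.07, 7.98 and 8.07 on the pool arrays, against 7.81, 7.89 and 7.85 on the control arrays. The groups did not overlap, and the pool array nearest to the controls was replicate 2. The log2 difference of 0.19 had a standard error of 0.054 and a fold interval of 1.04 to 1.24, and it did not pass (limma, adjusted p = 0.143). No alternative made it pass, with adjusted p between 0.0826 and 0.334. The smallest absolute log2 difference among the called rows was 0.23, larger than the differences of drpr and NimC4. The row gives 1 value for the gene. Draper isoforms, of which at least one inhibits engulfment signalling, were therefore not told apart.

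**Figure D2:**
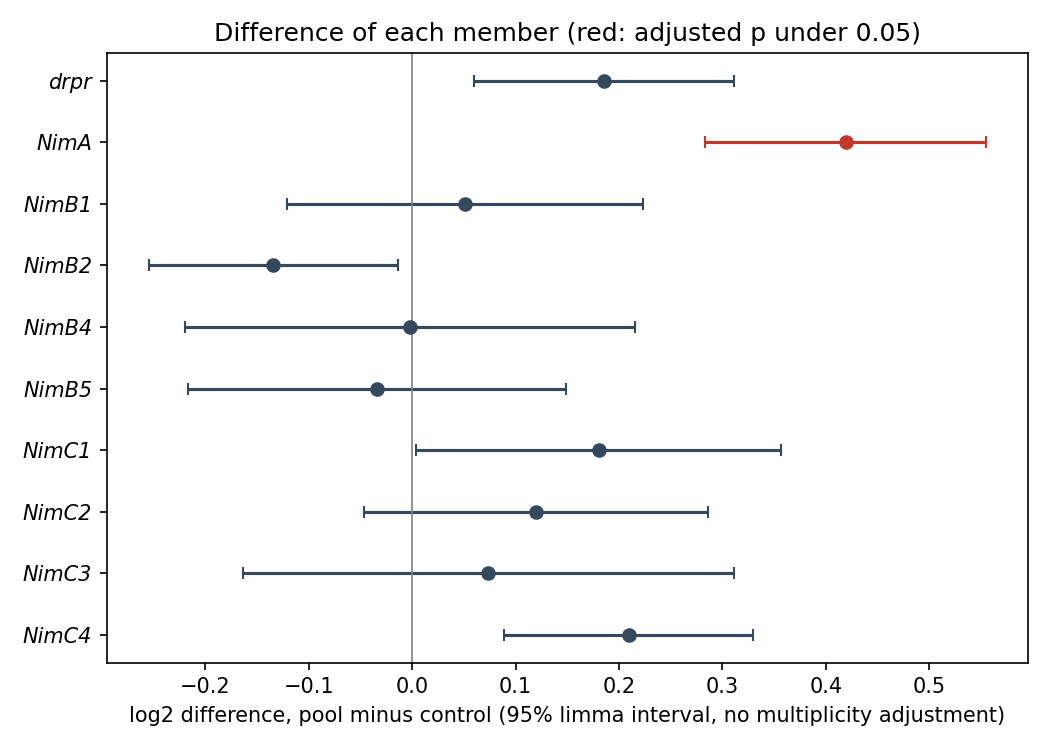
Log2 difference between pool and control (horizontal axis) for each member, with its 95% interval from limma, unadjusted for the number of rows tested. The interval of NimA runs between 0.28 and 0.55 and is drawn in red as the 1 that passed; those of drpr, NimC1 and NimC4 lie above 0 and that of NimB2 below 0, and none of these 4 passed.

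The remaining NimC genes encode NimC1, the plasmatocyte surface protein that takes part in the uptake of bacteria, and the less well described NimC2 and NimC3. NimC1 had log2 signals of 6.80, 6.63 and 6.80 in the pool, against 6.44, 6.63 and 6.61 in the control. Pool replicate 2 and control replicate 2 were nearly equal, so the groups overlapped. The log2 difference was 0.18 with a standard error of 0.076 (limma, adjusted p = 0.326). NimC2 read 4.39, 4.21 and 4.20 in the pool and 4.19, 4.20 and 4.06 in the control, which separated the groups by 0.0021 only. It was the 1 member among the dimmest 25% of rows, and its log2 difference was 0.12 (limma, adjusted p = 0.508). NimC3 read 4.65, 4.62 and 4.58 in the pool and 4.70, 4.64 and 4.29 in the control. Control replicate 3 was low while the other 2 control arrays were close to the pool, and the log2 difference was 0.07 (limma, adjusted p = 0.808). Without that array the difference turned to -0.05.

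The secreted NimB proteins include NimB1 and NimB4, which bind phosphatidylserine and act in the clearance of apoptotic cells by macrophages, and NimB5, a fat body product that limits hemocyte number in larvae. NimB2 had log2 signals of 8.86, 8.87 and 8.80 in the pool, against 9.00, 9.01 and 8.93 in the control. It was the member whose pool arrays all lay below the control arrays, by at least 0.059. The log2 difference was -0.13 with a standard error of 0.052 and did not pass (limma, adjusted p = 0.283). NimB1 averaged 5.27 ± 0.12 in the pool and 5.21 ± 0.07 in the control, NimB4 5.63 ± 0.19 in the pool and 5.63 ± 0.05 in the control, and NimB5 5.87 ± 0.09 in the pool and 5.90 ± 0.12 in the control (SD, n = 3 each). In these 3 genes the groups overlapped, and adjusted p in limma was 0.817, 0.994 and 0.892. Their 95% intervals still allowed folds of 0.919 to 1.17 for NimB1, 0.859 to 1.16 for NimB4 and 0.861 to 1.11 for NimB5. The signs of NimB4 and NimB5 turned with single arrays left out. Members share repeats of like sequence, and cross-hybridisation between them was not tested. In the RefSeq annotation NimB1 overlaps NimB2, NimB5 overlaps He, NimC2 overlaps rk and NimC3 overlaps the antisense RNA asRNA:CR44849. The strand of the array's probes was not known here, so signal of such partners cannot be told apart from that of the member.

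By the RefSeq annotation of fly assembly Release 6, drpr lies on chromosome arm 3L and the 9 Nimrod members lie on 2L, within a run of 29 genes between Ance-3 and CG46301. Of these 29 genes, 24 were measured, 9 of them members. NimA is the outermost Nimrod gene of the run, and the gene next to it on the outer side is Vajk3, followed by Vajk2. Vajk genes encode secreted proteins. This stretch was examined after the values were seen. The 3 genes Vajk2, Vajk3 and NimA were the called genes among the 24 measured, and all 3 were higher in the pool. Of all rows, 2.90% were called and 1.65% were called higher. Because the stretch was picked with these values known, its count is a description only.

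Vajk3 read 7.43, 7.26 and 7.24 in the pool, against 4.91, 5.03 and 4.84 in the control, a 5.22-fold rise (limma, adjusted p = 5.49e-06). Vajk2 read 8.80, 8.59 and 8.59 in the pool, against 7.18, 7.38 and 7.43 in the control, a 2.52-fold rise (limma, adjusted p = 0.000236). The groups were far apart in both genes, and their calls were kept in all 14 alternatives. In the RefSeq annotation both overlap Ance-3, so signal of Ance-3 cannot be told apart from theirs. Ance-3 itself stood at 0.13 log2 (limma, adjusted p = 0.581). Vajk1, 2 places further out than Vajk2, averaged 6.03 ± 0.16 in the pool and 6.07 ± 0.01 in the control (limma, adjusted p = 0.891). On the inner side of NimA, none of the 17 measured genes between NimB1 and NimC4 passed the test in limma, against 2.90% of all rows. NimB1, which follows NimA, stood at 0.05 log2 and NimB2 at -0.13. NimB3, a Nimrod gene that is not among the members, averaged 5.11 ± 0.04 in the pool and 5.23 ± 0.05 in the control, with a log2 difference of -0.12 (limma, adjusted p = 0.347). He, a hemocyte gene between NimB5 and NimC1, stood at -0.08 (adjusted p = 0.532). NimC4 lies inside the span of the acetylcholine receptor gene nAChRalpha5, to which the same limit applies and whose log2 difference was 0.08 (adjusted p = 0.666). The part of neighbouring transcription in the rise of NimA was not tested.

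**Figure D3:**
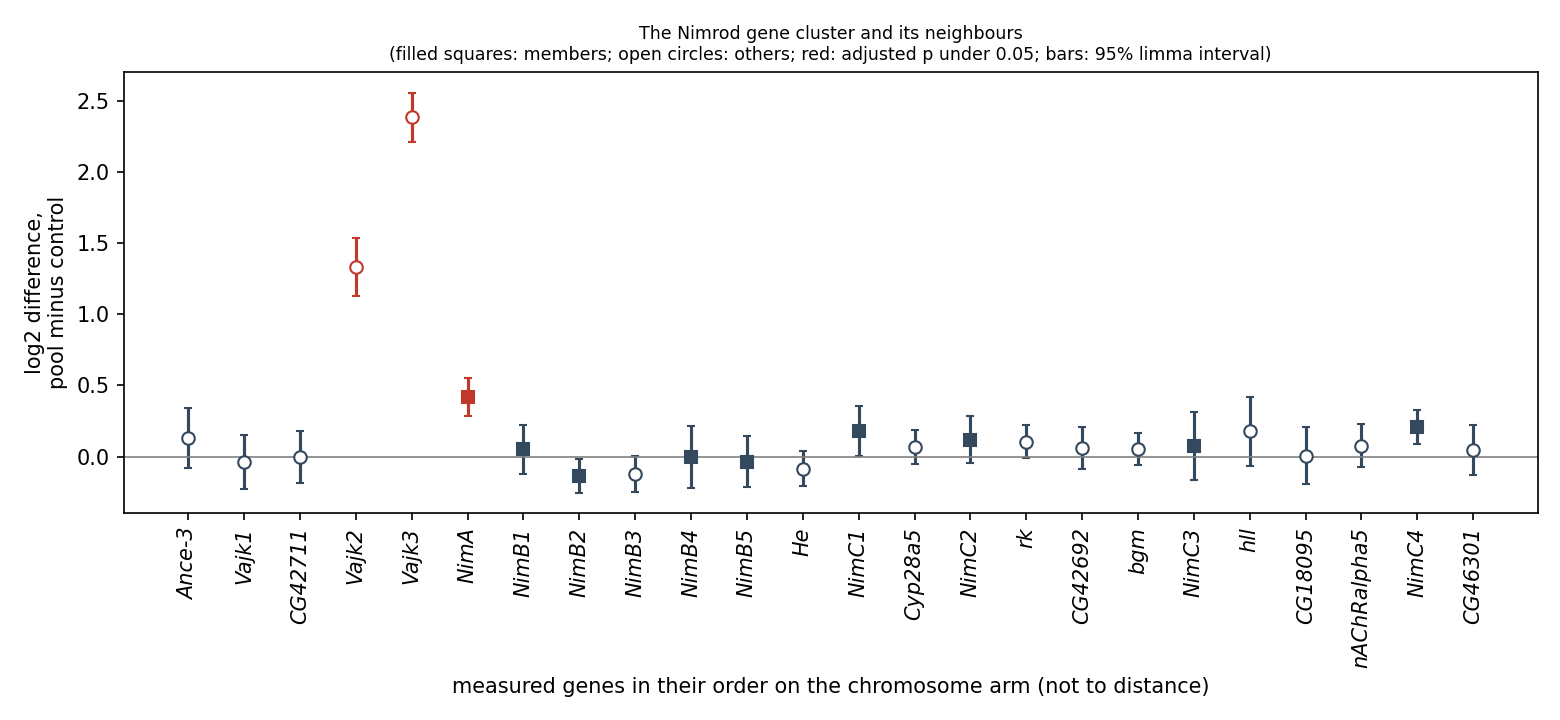
Log2 difference between pool and control (vertical axis, 95% limma interval) of the 24 measured genes around the Nimrod cluster, placed in their order along 2L and not to distance. The 3 called genes, Vajk2, Vajk3 and NimA in red, stand side by side at 1.33, 2.38 and 0.42, and the genes between NimB1 and NimC4 stay between -0.13 and 0.21. The stretch was picked after the values were seen.

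The lists of genes around Draper in the engulfment pathway gave 0 or 1 call each. Of all rows, 2.90% passed in limma and 14.8% had an unadjusted p under 0.05. Lists this short cannot tell 0 or 1 call from that share. Of 7 listed ligands and bridging proteins 3 were measured, and 0 passed in limma, with 1 at an unadjusted p under 0.05. Tep4, a thioester protein of the complement-like family, averaged 9.15 ± 0.03 in the pool and 9.39 ± 0.03 in the control, a log2 difference of -0.24 just outside the threshold (adjusted p = 0.0533). It passed in 4 of 14 alternatives, among them quantile normalization (adjusted p = 0.0444). The chemokine-like gene orion, which binds phosphatidylserine and Draper, stood at 0.06 (adjusted p = 0.722).

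Of 26 listed genes of Draper signalling and uptake 16 were measured; 0 passed in limma and 4 had an unadjusted p under 0.05, with a list median of 0.03. The adaptor gene ced-6 averaged 9.56 ± 0.03 in the pool and 9.65 ± 0.04 in the control, and the kinase gene Shark 5.65 ± 0.18 in the pool and 5.79 ± 0.13 in the control. Neither passed (adjusted p = 0.525 and 0.594). ced-6 and Shark were added to the genes named here for their direct role. The smallest p-values in the list were those of Jra, the fly Jun gene, at 0.20 (adjusted p = 0.181), and of the insulin receptor gene InR at 0.15 (adjusted p = 0.261). The 5 measured genes of the calcium store arm of uptake also gave 0 calls, and 0 of them had an unadjusted p under 0.05. Orai stood at 0.07 and the junctophilin gene jp at -0.02 (adjusted p = 0.659 and 0.947).

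ATP8A, a phospholipid flippase gene of the list of phosphatidylserine exposure, was the 1 of 3 measured that rose. It averaged 8.88 ± 0.04 in the pool and 8.58 ± 0.03 in the control, or 1.23-fold (limma, adjusted p = 0.0229). The groups did not overlap, but the call was kept in 6 of 14 alternatives only. It was lost whichever array was removed, with an adjusted p of at most 0.0960, and with arrays centred on their medians (adjusted p = 0.0608).

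The list of other phagocytic receptors gave 0 calls among 14 measured, with 4 at an unadjusted p under 0.05. It also holds Hml, a plasmatocyte marker rather than a receptor. The integrin alpha gene scb, a partner in phagocytosis by hemocytes, averaged 6.08 ± 0.02 in the pool and 5.80 ± 0.15 in the control (log2 difference 0.28, limma adjusted p = 0.120). Hml stood at -0.17 (adjusted p = 0.134). Of 21 measured genes of phagosome maturation and lysosomes 0 passed in limma and 5 had an unadjusted p under 0.05. In that list 16 genes were higher and 5 lower, and the median was 0.06. The cholesterol transport gene Npc1a stood at 0.19 (adjusted p = 0.126) and Vps33B at 0.17 (adjusted p = 0.223).

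**Figure D4:**
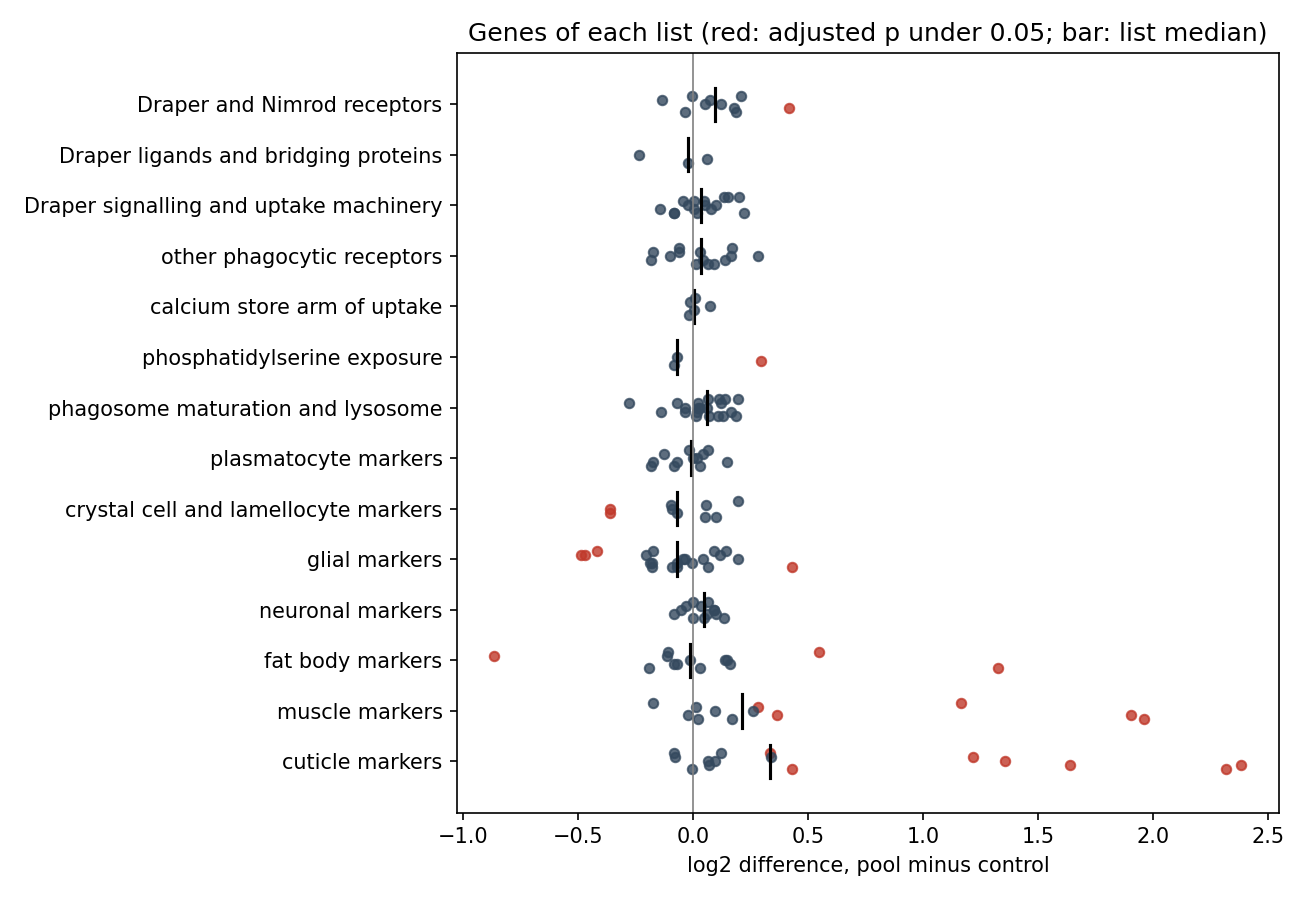
Log2 difference between pool and control (horizontal axis) of every measured gene in each list, 1 dot a gene, with genes at an adjusted p under 0.05 in red and the list median as a bar. Called genes are frequent in the cuticle and muscle lists, whose medians are 0.33 and 0.21, and NimA is the 1 red dot among the members. Of all rows, 2.90% were called. The lists were chosen with earlier results of these data known, so this frequency is no separate result.

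Draper and the Nimrod proteins are made by glia, hemocytes and fat body. Glial and fat body markers moved in both directions, the crystal cell genes PPO1 and PPO2 fell, and no plasmatocyte marker passed. Of all rows, 2.90% passed in limma and 14.8% had an unadjusted p under 0.05. The marker lists were chosen with earlier results of these data known, so their counts of calls are no separate result. In bulk heads fewer cells of a type and less RNA per cell cannot be told apart. Of 21 measured glial markers 1 rose and 3 fell, with a median of -0.07. The cortex glia genes wrapper and zyd stood at -0.47 and -0.42 (limma, adjusted p = 0.00299 and 0.0149), ana, a secreted glial protein gene, at -0.48 (0.00260) and Obp44a at 0.43 (0.00387). The call of zyd was lost on removing any array except control replicate 3, with an adjusted p of at most 0.0673. Over all 14 alternatives the call of zyd was kept in 8, and the largest adjusted p was 0.0909. In the list 14 markers were lower and 7 higher in the pool. Among the lower was nrv2 at -0.07 (limma, adjusted p = 0.592). It is the target of the nrv2-RNAi line in the pool, and it counts in the sums that follow. The summed linear signal of the glial list was 20287 to 21064 on the pool arrays and 19458 to 19994 on the control arrays, and Obp44a alone carried the higher pool sum. Without it, a sum taken after the values were seen, the other 20 markers gave 15042 to 15588 on the pool arrays and 15468 to 15981 on the control arrays, which overlapped. No row of any list was at 0, since the lowest deposited value was 3.20.

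Of 12 measured plasmatocyte markers 0 passed in limma and 3 had an unadjusted p under 0.05, with a median of -0.01. The shares over all rows were 2.90% and 14.8%, and a list this short cannot tell 0 calls from the first. Sr-CI, a scavenger receptor gene, stood at -0.18 (adjusted p = 0.174). Their summed linear signal was 4211 to 4382 on the pool arrays and 4305 to 4574 on the control arrays. Of 9 measured markers of crystal cells and lamellocytes 2 fell and 0 rose. These were the prophenoloxidase genes PPO1 and PPO2, both at -0.36 (limma, adjusted p = 0.00875 and 0.00827). In the list 4 genes were higher and 5 lower in the pool. Among the higher were lz at 0.10 and peb at 0.20 (limma, adjusted p = 0.658 and 0.342). The summed signal was 2769 to 2891 on the pool arrays and 3120 to 3181 on the control arrays. It includes PPO1 and PPO2, and no sum was taken without them, so it does not describe the list as a whole.

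Of 13 measured fat body markers 2 rose and 1 fell: Lsp2 at 1.33 and Obp99b at 0.55, against Obp99a at -0.86 (limma, adjusted p = 1.45e-05, 0.00428 and 0.000861). Their summed signal was 51028 to 51975 on the pool arrays and 52040 to 52718 on the control arrays. The yolk protein genes Yp1, Yp2 and Yp3 were the brightest of the list, with control means of 13.78, 13.68 and 13.41. They weigh most in this sum, and stood at -0.11, -0.11 and -0.19 without passing in limma. Of 12 measured muscle markers 5 rose and 0 fell, led by Act88F at 1.96, fln at 1.90 and TpnC4 at 1.16 (limma, adjusted p = 7.01e-06, 1.45e-05 and 0.000118). In this list 10 genes were higher and 2 lower in the pool. The lower ones, sls at -0.17 and Mlp84B at -0.02, did not pass. TpnC73F stood at 0.37 (adjusted p = 0.0382). With any array removed, or with arrays centred on their medians, the muscle count was 3 in place of 5. Of 15 cuticle markers 7 rose and 0 fell, led by Vajk3 at 2.38, Acp1 at 2.32, Cpr100A at 1.64 and Cpr97Eb at 1.35. Here 12 genes were higher and 3 lower in the pool. The lower ones, ple and Ddc at -0.08 and TwdlE at -0.0039, did not pass. The summed signal of the cuticle list was 6581 to 6698 on the pool arrays and 4865 to 5108 on the control arrays, and that of the muscle list 13764 to 14169 on the pool arrays and 11689 to 12234 on the control arrays. Both sums include the called genes, and none was taken without them, so they do not describe the lists as a whole. None of 13 measured neuronal markers passed in limma or had an unadjusted p under 0.05, and nrv3 stood at 0.09 (adjusted p = 0.458). Their summed signal was 18844 to 19747 on the pool arrays and 18191 to 18991 on the control arrays. The part of cuticle, muscle or other cells in the higher NimA signal was not tested.

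The genes whose values over the 6 arrays were most like those of drpr were ImpL2, Arpc2 and kn, among 13392 genes compared. After each gene was centred on its own mean, their root mean square difference from drpr was 0.0168, 0.0172 and 0.0173 log2. ImpL2 encodes a secreted insulin-binding protein, Arpc2 a subunit of the actin-nucleating Arp2/3 complex and kn a transcription factor. Their own log2 differences between pool and control were 0.20, 0.19 and 0.18. For NimC4 the closest were AhcyL1, CG13917 and the focal adhesion gene Zyx, at 0.0144, 0.0159 and 0.0185 log2, with differences of 0.20, 0.18 and 0.23. None of these 6 genes passed the test in limma, and at an unadjusted p under 0.05 all 6 did, as did drpr and NimC4. The 6 were chosen for likeness on the same arrays, so their differences and p-values are no separate result. With so many genes and 6 arrays, such likeness is a description only.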

How the data were processed

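The authors deposited 1 log2 value per array row and array; per the submitters' processing notes they used Affymetrix Expression Console, while its algorithm, its version and the genome build were not given in the sources used here. A log2 scale was taken from the range of the deposited values (3.20 to 14.02). The values were used without further scaling. Rows were named through the platform's annotation: of 16322 rows, 13441 had 1 symbol, 555 several and 2326 none. A gene was read from its row of highest mean. Only genes with a row of 1 symbol count as measured, so a gene left out may still share a row of several symbols. Gene order came from the RefSeq table of the Release 6 plus ISO1 MT assembly; coordinates and sequences are not given.

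Pool and control, 3 arrays each and grouped by the labels' titles, were compared with lmFit and eBayes in limma 3.58.1 (R 4.3.3), as pool minus control in a two-sided test of all rows, with Benjamini-Hochberg adjustment and a threshold of 0.05. Residual degrees of freedom were 4 and prior degrees of freedom 3.78. Errors beside means are SDs; intervals are limma's at 95%. Beyond the members, each list was represented by at most 4 called genes, those of largest change, or failing any call by the 2 genes of smallest p, and 3 most alike for drpr and NimC4. Members and lists were chosen with earlier results of these data known. The exceptions, ced-6, Shark, repo, lz, peb, nrv2, the Yp genes, sls, Mlp84B, ple, Ddc, TwdlE and the neighbours of the Nimrod genes, were chosen outside this rule. The fit was tested on simulated arrays. Same-numbered arrays did not deviate together (correlations of -0.014, -0.0048 and 0.0896), so the numbers were not taken as pairs. Figures used matplotlib 3.10.9 (Python 3.11.15).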

Additional observations from a re-analysis of the deposited data

How the results depend on the processing

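Alternative fits used quantile normalization, median centring of arrays, no rows of the dimmest 25%, only rows with 1 symbol, a replicate block, trend and robust settings in eBayes, weighted arrays, an ordinary test without moderation, and 5 of the 6 arrays. The 10 members gave 139 alternative values, of which 138 kept their side of the threshold; the exception was NimA in the ordinary test (adjusted p = 0.0616), which left 0 members called, against 1 in limma and 5 at an unadjusted p under 0.05. NimC2 could not be fitted with dim rows dropped, and every member has 1 row, so the mean over rows was not run. No member changed direction under quantile normalization or median centring. With an array left out, NimB4 turned higher without pool replicate 2 or control replicate 1 or 2, NimB5 turned higher without pool replicate 3 or control replicate 3, and NimC3 turned lower without control replicate 3. The 473 called rows became 312 with the replicate block, 861 with trend and robust settings and 196 in the ordinary test. Leaving out an array gave 218 to 312: 231, 232 and 218 without pool replicates 1, 2 and 3, and 283, 246 and 312 without control replicates 1, 2 and 3. Centring turned the split of 270 higher and 203 lower rows into 219 and 249. Under the replicate block the member count stayed at 1, and the numbers do not pair the arrays: pool replicates 1 and 2 correlated best with control replicates 2 and 1, and pool replicate 3 with control replicate 3 (0.0896). Among 32 other named genes, 417 of 448 values kept their side, 25 lost the call and 6 gained it, with no call turned in direction; the causes were not tested.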
